A study of Mus musculus with 12 samples.

Results

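Il10, Ebi3, Fgl2, Areg, Il1rl1, Il18r1 and Klrg1 are genes of the suppressive and tissue repair programme of regulatory T cells (Tregs), the Foxp3+ CD4+ T cells that restrain immune responses. They were chosen by symbol, as a secreted cytokine, a cytokine subunit, further secreted effectors, and receptors that mark tissue Tregs. They make up 7 of the 24421 gene symbols in the count table, and all 7 were among the 12461 genes with enough reads to test.

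Bulk RNA-seq measured central Tregs (cTreg) and effector Tregs (eTreg) of mouse, told apart in the sort by a surface marker gate, and titled WT or KO for CD25, the interleukin-2 receptor alpha chain encoded by Il2ra. The question was how loss of this receptor shapes the Treg subsets. The design gives 4 groups of 3 libraries, 1 for each pairing of genotype and subset. Each library was a biological replicate that pooled spleen and lymph nodes of 2 to 3 mice, although the design text also names the spleen alone as the source. All groups carried R26tomato+/+ and Foxp3eGFPERT2+/+ and received 2 mg/kg tamoxifen intraperitoneally for 5 days, and cells were harvested 10 days after induction. Live CD4+ cells were sorted on GFP and tdTomato. The knockout is described as Treg-specific, and KO cells were further gated as CD25-low. The genotype field gives CD25FL/FL to the libraries titled WT and CD25WT/WT to those titled KO. The titles and the cell type field were followed here. Il2ra read 523 to 580 CPM (counts scaled to library size, TMM-normalised) in WT cTreg and 112 to 122 in KO cTreg, and 464 to 562 in WT eTreg against 116 to 132 in KO eTreg, so its level followed the titles. The same gate selected KO cells, and Il2ra is therefore not an independent check.

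As background, IL-10 is a secreted cytokine that dampens antigen-presenting cells and effector T cells, and EBI3 is the subunit that pairs with p35 (Il12a) to form IL-35, an inhibitory cytokine ascribed to Tregs. Fgl2 encodes a fibrinogen-like protein that Tregs secrete and that acts through inhibitory Fc receptors, and Areg encodes amphiregulin, a ligand of the epidermal growth factor receptor that promotes repair of damaged tissue. Il1rl1 encodes ST2, the receptor for the alarmin IL-33, Il18r1 encodes the ligand-binding chain of the IL-18 receptor, and Klrg1 encodes an inhibitory receptor for cadherins found on highly differentiated T cells.

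The windows before the RefSeq start sites are shown because the interleukin-2 receptor signals through STAT5, and because AP-1, CREB and GATA3 are factors well known in T cells. Windows of 250 bases upstream of the start were read from the RefSeq promoter table on GRCm38.p6 for 5 of the 7 genes, with 8 windows in all. Il10 and Klrg1 have no entry. Both strands were searched for the STAT5 motif TTCNNNGAA and for the AP-1 motif, in which TGA and TCA flank any base. The core of the cyclic AMP response element (CRE) was searched as TGACG, and the GATA motif as AGATAA. The NFAT motif was searched as TGGAAA and the E-box as CANNTG. Capitals mark matches to the STAT5, AP-1, CRE core and GATA letters, and a match is a description of the sequence, not of binding. All windows below are on the plus strand, 5′ to 3′: the Areg window is chr5:91139349-91139598, the upstream and downstream Il1rl1 start windows are chr1:40429320-40429569 and chr1:40439379-40439628, and the Fgl2 stretch is chr5:21372634-21372663.
Areg: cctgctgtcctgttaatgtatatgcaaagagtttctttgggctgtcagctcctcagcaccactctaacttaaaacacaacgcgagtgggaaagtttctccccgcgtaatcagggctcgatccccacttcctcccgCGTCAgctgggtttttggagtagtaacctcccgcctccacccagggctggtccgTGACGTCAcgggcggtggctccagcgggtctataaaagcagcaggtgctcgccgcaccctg
Il1rl1 upstream start: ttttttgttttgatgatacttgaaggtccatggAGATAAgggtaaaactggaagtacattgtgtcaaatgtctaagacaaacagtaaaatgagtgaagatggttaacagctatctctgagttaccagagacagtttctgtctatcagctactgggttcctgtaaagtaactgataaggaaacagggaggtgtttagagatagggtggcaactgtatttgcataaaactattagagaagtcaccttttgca
Il1rl1 downstream start: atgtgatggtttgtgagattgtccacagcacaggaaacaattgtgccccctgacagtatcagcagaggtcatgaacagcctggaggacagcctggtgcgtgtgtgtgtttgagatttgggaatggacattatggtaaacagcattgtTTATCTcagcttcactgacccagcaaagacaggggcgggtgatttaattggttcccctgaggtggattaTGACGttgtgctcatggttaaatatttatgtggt
Fgl2: cttTTCTGGGAActcagaacgccTGAGTCA

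The Areg window held the CRE core at 115, 61 and 58 bases upstream. The last pair overlap and spell the palindrome TGACGTCA, from 61 to 54 bases upstream. This palindrome was in 508 of the 32851 windows of the table (1.55%), and the CRE core alone in 17.8%. Fgl2 held a STAT5 match at 36 and an AP-1 match at 16 bases upstream of its RefSeq start, motifs present in 7.02% and 6.75% of all windows. The GENCODE gene start of Fgl2 (chr5:21372642) differs, lying within this STAT5 match and before the AP-1 match. The upstream Il1rl1 start had a GATA match at 217 bases, and the downstream start had a GATA match at 103 and a CRE core at 34 bases. GATA letters were in 9.99% of all windows. The most downstream of the 3 Il18r1 windows held STAT5 matches at 219 (TTCTGGGAA) and 152 bases (TTCCCAGAA). The first has the same 9 letters as the Fgl2 match, and the second is the reverse complement of those letters. None of these STAT5, AP-1, CRE core or GATA letters were found in the Ebi3 window. The NFAT and E-box letters were in 18.6% and 66.2% of all windows and are not marked.

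On mm10 (GENCODE vM21), Il10 (ENSMUSG00000016529.5) lies at chr1:131019845-131024974 on the plus strand. Ebi3 (ENSMUSG00000003206.7) lies at chr17:55952640-55957022, Fgl2 (ENSMUSG00000039899.5) at chr5:21372642-21378374 and Areg (ENSMUSG00000029378.5) at chr5:91139599-91148432, all on the plus strand. Klrg1 (ENSMUSG00000030114.8) lies at chr6:122270596-122282882 on the minus strand. Il1rl1 (ENSMUSG00000026069.15, chr1:40429570-40465415) and Il18r1 (ENSMUSG00000026070.15, chr1:40465552-40500854) are plus-strand neighbours with 136 bases between them, and Il18rap, the second chain of the IL-18 receptor, begins 14507 bases after Il18r1. Counts were per gene, so membrane and soluble ST2 transcripts were not separated. Exons of Ebi3 overlap the antisense gene Gm16712, which had 2 to 16 counts per library, or 1.37% to 16.7% of the Ebi3 count.

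Total counts ran from 14567313 to 19121577 per library. The ribosomal RNA gene Rn45s took 22.4% to 24.4% of counts in WT cTreg, 18.1% to 18.5% in KO cTreg, 4.11% to 4.34% in WT eTreg and 3.19% to 3.32% in KO eTreg. Foxp3 was lowest in KO eTreg (158 to 187 CPM) and highest in WT cTreg (385 to 407). The 6 macrophage or monocyte markers summed to 2.88 to 4.61 CPM in WT cTreg and 5.19 to 11.5 in KO cTreg, and to 3.17 to 6 in WT eTreg and 2.55 to 7.30 in KO eTreg, with Cd14 at 0 in 9 of 12 libraries. The 4 NK cell markers summed to 3.23 to 4.81 CPM in WT cTreg, 13.3 to 16.5 in KO cTreg, 1.27 to 3.83 in WT eTreg and 1.96 to 15.6 in KO eTreg. Of these, Klra8 was at 0 in all 12 libraries and Ncr1 in 11, and Klrb1c reached 11.4 CPM in KO eTreg library 2. Eomes made up most of the sum in cTreg, at 3.23 to 4.49 CPM in WT and 12.6 to 14.7 in KO. The 5 dendritic cell markers summed to 0.433 to 0.642 CPM in WT cTreg, 0.671 to 1.71 in KO cTreg, 4.43 to 5.77 in WT eTreg and 5.88 to 6.87 in KO eTreg. The 4 B cell markers summed to 11.4 to 12.8 CPM in WT cTreg, 7.63 to 9.57 in KO cTreg, 14.7 to 15.3 in WT eTreg and 8.77 to 10.8 in KO eTreg, and the 5 granulocyte or mast cell markers to at most 0.36 in any library. The 3 effector T cell markers (Cd44, Icos and Itgb1) summed to 547 to 702 CPM in WT cTreg and 1630 to 1990 in KO cTreg, beside 1710 to 2000 in WT eTreg and 1970 to 2570 in KO eTreg. Itgb1 made up most of the KO cTreg sum, at 1110 to 1440 CPM, beside 897 to 1160 in WT eTreg. Cd44 (196 to 202) and Icos (321 to 353) in KO cTreg stayed below WT eTreg (311 to 357 and 412 to 487). The 5 central T cell markers summed to 2950 to 3190 CPM in WT cTreg and 2980 to 3160 in KO cTreg. In eTreg they summed to 1050 to 1230 (WT) and 1150 to 1250 (KO). Of these, Ccr7 was lower and Tcf7 higher in KO than in WT cTreg. Some of these sums moved with some of the differences below, and their part in them was not tested. In bulk libraries, fewer cells that express a gene and less RNA per cell cannot be told apart.

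In central Tregs, 6 of the 7 genes rose in KO against WT: Il10, Ebi3, Fgl2, Areg, Il18r1 and Klrg1 (edgeR's quasi-likelihood test, Benjamini-Hochberg adjusted p under 0.05). Across all genes tested, 14.8% rose and 27.5% changed in either direction. The median log2 fold change of the 7 was 1.22, beside 0.001 over all genes. In effector Tregs, Areg alone rose by the same test, where 3.25% of all genes rose, 3.4% fell and 6.65% changed in either direction. All 7 genes were higher in eTreg than in cTreg of both genotypes, where 35.7% (WT) and 36.1% (KO) of all genes rose and 71.5% (WT) and 72% (KO) changed. No eTreg library overlapped a cTreg library of the same genotype for any of the 7, as for 74.9% (WT) and 74.6% (KO) of all genes. For each of the 7, the KO cTreg libraries lay above the WT cTreg libraries, although Il1rl1 was not called. There the libraries of 40.4% of all genes did not overlap, in either direction. All 7 were still lower in KO cTreg than in WT eTreg, without overlap. In that comparison 35.1% of all genes were lower, 35.2% were higher and 70.2% changed, and the libraries of 74.1% did not overlap. KO cTreg thus lay between WT cTreg and WT eTreg for each gene. The share of all genes in this order was not computed.

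**Figure D1:**
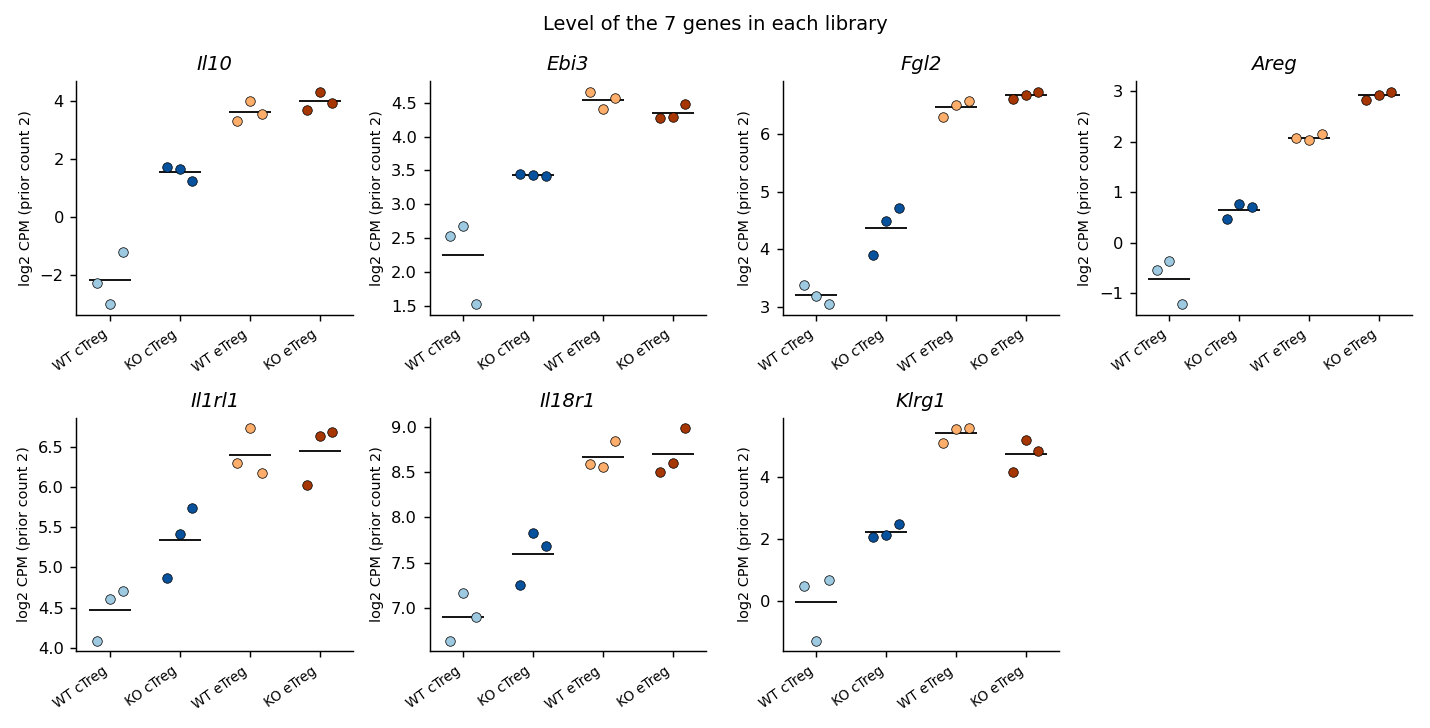
Log2 CPM (with a prior count of 2, so that a count of 0 can be drawn) of the 7 genes, 1 panel per gene, with 1 point per library and a bar at the mean of the 3 libraries of a group. The KO cTreg points lie above the WT cTreg points and below the eTreg points for each gene, from 0 to 0.307 CPM to 2.24 to 3.19 CPM for Il10 in cTreg.

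Il10 was close to absent in WT cTreg, at 0.0802, 0 and 0.307 CPM in libraries 1, 2 and 3, from 1, 0 and 4 reads. KO cTreg read 3.19, 2.99 and 2.24 CPM. WT eTreg read 9.75, 15.9 and 11.6 CPM, and KO eTreg 12.8, 20.0 and 15.3. The cTreg groups did not overlap, which held for 40.4% of all genes tested, whereas the eTreg groups did. The fitted rise in KO cTreg was 20.8-fold (log2 4.38 ± 0.57 SE, adjusted p = 6.41e-05). The WT cTreg total of 5 reads makes its size imprecise: the ratio of summed reads was 22.0 with a 95% exact interval of 9.19 to 69.0, for counting error only. The log2 value was 3.78 without WT cTreg library 2 and 5.95 without library 3. In eTreg the fold was 1.29 (log2 0.36 ± 0.21, adjusted p = 0.393). From cTreg to eTreg, Il10 rose by log2 6.53 ± 0.45 in WT and 2.52 ± 0.26 in KO.

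Ebi3 read 5.69, 6.27 and 2.77 CPM in WT cTreg and 10.8, 10.7 and 10.6 in KO cTreg. In WT eTreg it read 25.2, 21.1 and 23.5 CPM, and in KO eTreg 19.2, 19.3 and 22.3. The cTreg groups were apart, with the KO libraries almost equal and WT library 3 lowest, while the eTreg groups overlapped. The rise in KO cTreg was 2.17-fold (log2 1.12 ± 0.19, adjusted p = 0.000583). In eTreg the log2 fold change was -0.20 ± 0.15 (adjusted p = 0.537). The gain from cTreg to eTreg was log2 2.24 ± 0.18 in WT and 0.92 ± 0.16 in KO.

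Fgl2 read 10.3, 8.94 and 8.14 CPM in WT cTreg and 14.7, 22.4 and 26.3 in KO cTreg. WT eTreg stood at 78.7, 91.4 and 95.7 CPM, and KO eTreg at 97.7, 103 and 107. Both KO groups lay above their WT group without overlap (25.2% of all genes in eTreg), and in KO cTreg library 1 was lowest. The rise was 2.33-fold in cTreg (log2 1.22 ± 0.20, adjusted p = 0.000958). In eTreg it was 1.16-fold and missed the threshold (log2 0.21 ± 0.14, adjusted p = 0.47). KO minus WT was 12 ± 3.45 CPM in cTreg and 13.9 ± 5.72 CPM in eTreg (SE, n = 3 per group).

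Areg, the amphiregulin gene, had the lowest level of the 7 per kilobase of exon in every group except WT cTreg. WT cTreg read 0.561, 0.649 and 0.307 CPM, from 20 reads in all, and KO cTreg 1.26, 1.58 and 1.52. WT eTreg read 4.06, 3.97 and 4.30 CPM, and KO eTreg 6.98, 7.46 and 7.81. No KO library overlapped a WT library in either subset. The rise was 2.85-fold in cTreg (log2 1.51 ± 0.29, adjusted p = 0.000923) and 1.81-fold in eTreg (log2 0.85 ± 0.17, adjusted p = 0.00504). Areg was called in both subsets under each alternative tried and with any library left out, with log2 values of 1.26 to 1.74 in cTreg and 0.81 to 0.89 in eTreg.

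Il1rl1, the ST2 gene, read 16.9, 24.2 and 26 CPM in WT cTreg and 29.1, 42.7 and 53.5 in KO cTreg. WT eTreg read 78.7, 106 and 72.0 CPM, and KO eTreg 64.8, 98.8 and 103. The cTreg groups did not overlap, but library 1 was lowest in both, and the eTreg groups overlapped throughout. The log2 fold change in cTreg was 0.90 ± 0.31, 1.87-fold, and missed the threshold (adjusted p = 0.0616). It passed without KO cTreg library 1 (adjusted p = 0.0296), without KO eTreg library 1 (0.0464) and with DESeq2 (0.00871). In eTreg the log2 fold change was 0.05 ± 0.26 (adjusted p = 0.944).

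Il18r1 had the highest level of the 7 per kilobase of exon in every group. It read 99.6, 143 and 119 CPM in WT cTreg and 153, 227 and 206 in KO cTreg. In WT eTreg the levels were 385, 376 and 459 CPM, and in KO eTreg 363, 387 and 505. KO cTreg lay above WT cTreg without overlap, and the eTreg groups overlapped. The rise in cTreg was 1.62-fold (log2 0.69 ± 0.20, adjusted p = 0.0306). This call ended without WT cTreg library 1 (adjusted p = 0.0965) or 3 (0.0881), without KO cTreg library 2 (0.113) or 3 (0.0855), and in a fit of the 6 cTreg libraries alone (0.0811). In eTreg the log2 fold change was 0.04 ± 0.19 (adjusted p = 0.94).

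Klrg1 read 1.28, 0.288 and 1.46 CPM in WT cTreg, from 39 reads in all, and 4.08, 4.21 and 5.47 in KO cTreg. WT eTreg read 33.8, 46.8 and 47.0 CPM, and KO eTreg 17.5, 36.1 and 28.5. Klrg1 was thus higher in KO than in WT cTreg without overlap, while in eTreg 2 of 3 KO libraries lay below every WT library. The cTreg rise was 4.60-fold (log2 2.20 ± 0.57, adjusted p = 0.0181). It lost the call without WT cTreg library 2 (log2 1.74, adjusted p = 0.0588), without KO cTreg library 3 (0.0561) and with limma-voom (0.136). In eTreg the log2 fold change was -0.63 ± 0.26 (adjusted p = 0.221). The step from cTreg to eTreg was log2 5.41 ± 0.43 in WT and 2.58 ± 0.33 in KO.

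**Figure D2:**
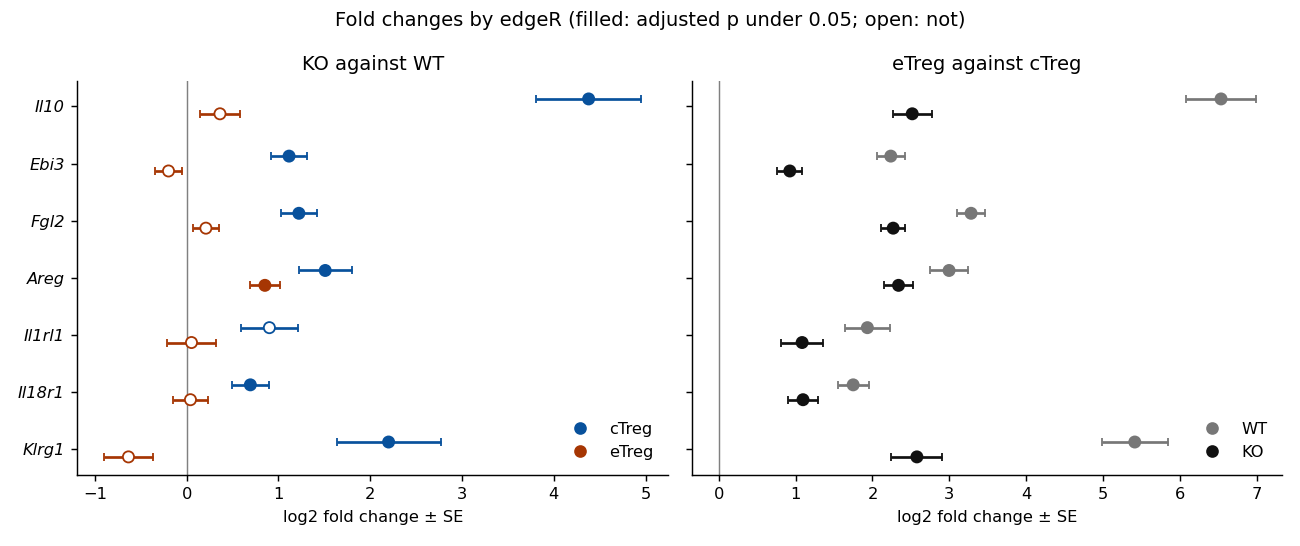
Log2 fold changes of the 7 genes with SE bars from the fit over 12 libraries, for KO against WT in each subset and for eTreg against cTreg in each genotype, with filled points for adjusted p under 0.05. Each gene lies above 0 for KO against WT in cTreg, Areg alone is filled in eTreg, and the step from cTreg to eTreg is 0.92 in KO against 2.24 in WT for Ebi3.

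Same-numbered WT and KO eTreg libraries deviated from their group means together (r of 0.257, 0.341 and 0.166), so the eTreg differences were also read within numbers, with the number as a block in a fit of the 6 eTreg libraries. Differently numbered WT and KO eTreg libraries gave r of -0.315 to 0.071. Deviations cancel out over the 3 libraries of a group, so these values are tied to the same-numbered ones and add no separate support. Between subsets, WT cTreg library 2 and WT eTreg library 1, of unlike number, gave 0.223. KO cTreg library 3 and KO eTreg library 2, also of unlike number, gave 0.19, and KO cTreg library 1 and KO eTreg library 1 gave 0.229. The labels give no pairs, so a pairing is not established. That fit called 14% of its 12208 genes, 7.54% higher and 6.48% lower. Areg was joined there by Il10 (log2 0.36, adjusted p = 0.0169), Fgl2 (0.20, adjusted p = 0.0104) and Klrg1 (fell by 0.67, adjusted p = 0.00122), so that 4 of the 7 were called. A block over all 12 libraries called none of these 3 (adjusted p = 0.239, 0.364 and 0.0912). Within numbers 1, 2 and 3, KO eTreg exceeded WT eTreg in Il10 by log2 0.39, 0.33 and 0.40. The Klrg1 differences were -0.95, -0.37 and -0.72, and those of Ebi3 were -0.39, -0.13 and -0.08. Thus the sign was the same within each number for Il10, Fgl2, Areg, Klrg1 and Ebi3, and mixed for Il1rl1 (-0.28, -0.10 and 0.51) and Il18r1 (-0.09, 0.04 and 0.14). The share of all genes with the same sign within each number was not computed, so these signs are descriptions only. Ebi3 was not called in eTreg under any alternative (adjusted p of 0.116 or more).

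**Figure D3:**
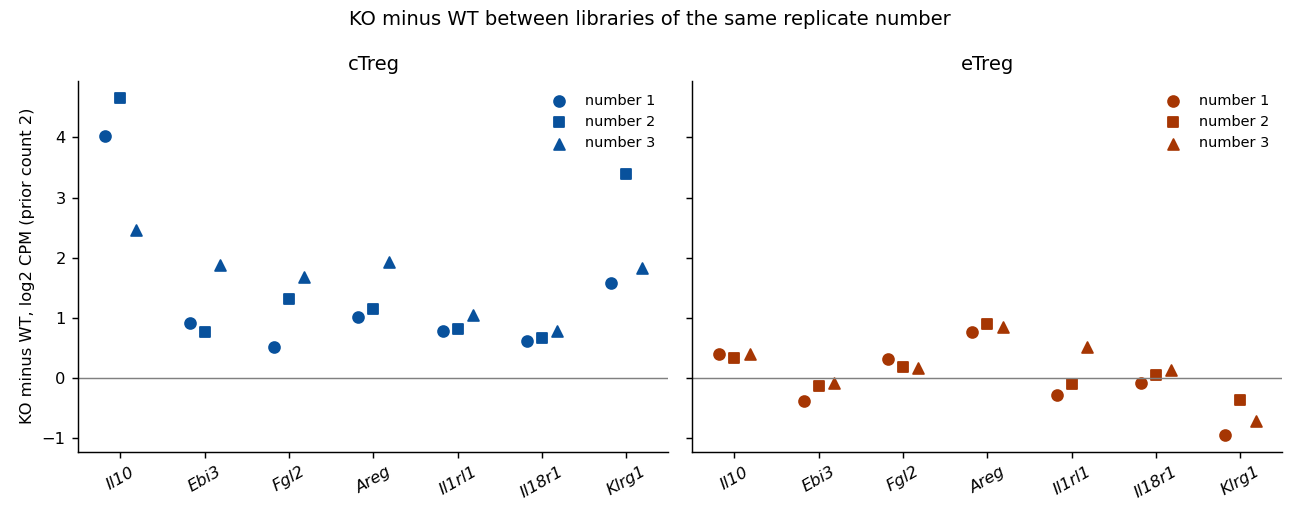
KO minus WT difference in log2 CPM for each replicate number, in cTreg and eTreg, with 1 point per number. In eTreg the Areg points lie at 0.77 to 0.89 and the Klrg1 points at -0.95 to -0.37. In cTreg every point is above 0, as it would be under any numbering, because the cTreg groups do not overlap for any gene.

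The KO effect was compared between subsets by the interaction, the KO effect in eTreg minus that in cTreg. It was called lower for 4 of the 7 genes, where 3% of all genes were called lower, 0.803% higher and 3.8% in either direction. The values were -4.02 ± 0.65 for Il10 (adjusted p = 0.00254), -1.31 ± 0.25 for Ebi3 (0.00626), -1.01 ± 0.24 for Fgl2 (0.0467) and -2.83 ± 0.62 for Klrg1 (0.0396), on the log2 scale. The log2 difference for Il10 was -3.42 without WT cTreg library 2 and -5.58 without library 3. The Fgl2 call ended in 13 of 20 alternatives and the Klrg1 call in 11 of 20, most of them with 1 library left out, and Il10 missed the threshold with limma-voom (adjusted p = 0.0548). Areg (-0.66 ± 0.34, adjusted p = 0.361), Il1rl1 (-0.85 ± 0.40, adjusted p = 0.345) and Il18r1 (-0.65 ± 0.27, adjusted p = 0.275) were not called. On the CPM scale, KO minus WT was 2.68 ± 0.30 CPM (SE) in cTreg and 3.62 ± 2.77 in eTreg for Il10, and 0.948 ± 0.142 and 3.31 ± 0.26 for Areg. For Klrg1 it was 3.57 ± 0.58 CPM in cTreg and -15.1 ± 6.95 in eTreg.

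The steps from cTreg to eTreg not yet given were log2 3.28 ± 0.18 in WT and 2.27 ± 0.16 in KO for Fgl2, the secreted fibrinogen-like protein. For Areg they were 3.00 ± 0.25 and 2.34 ± 0.19. Of the receptors, Il1rl1 rose by 1.93 ± 0.30 in WT and 1.08 ± 0.28 in KO, and Il18r1 by 1.75 ± 0.20 and 1.10 ± 0.19. Adjusted p over the 7 genes ran from 1.06e-08 to 0.000332 in WT and from 1.45e-08 to 0.00649 in KO. The Il1rl1 step in KO lost its call with the adjustment for gene length and GC content (log2 0.62, adjusted p = 0.0889). KO cTreg remained below WT eTreg by log2 3.21 ± 0.33 for Klrg1. The gaps of Ebi3 (1.12 ± 0.16), Il18r1 (1.05 ± 0.19) and Il1rl1 (1.03 ± 0.28) lay within their SE of each other, and that of Il1rl1 lost its call with the same adjustment (adjusted p = 0.103).

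The order of the genes was read from CPM per kilobase of exon, since CPM alone favours long transcripts. In WT cTreg, Il18r1 led at 25.1 ± 4.54 (SD, n = 3), followed by Ebi3 at 4.26 ± 1.63 and Il1rl1 at 3.27 ± 0.70, which did not differ beyond their spread. Fgl2 followed at 2.41 ± 0.28, within the spread of Il1rl1, and Klrg1 (0.715 ± 0.447) and Areg (0.416 ± 0.146) were again within their spread, with Il10 last at 0.0986 ± 0.122. In WT eTreg, Il18r1 led at 84.3 ± 9.45. Klrg1 stood at 30.1 ± 5.35 CPM per kilobase, Fgl2 at 23.4 ± 2.33 and Ebi3 at 20.2 ± 1.77, and neighbours in this order overlapped in their spread. Il1rl1 at 12.5 ± 2.61 and Il10 at 9.48 ± 2.41 overlapped as well, and Areg was last at 3.38 ± 0.142. In KO cTreg, Ebi3 at 9.25 ± 0.12 kept the second place after Il18r1 at 40.6 ± 7.99. Il1rl1 (6.11 ± 1.79) and Fgl2 (5.58 ± 1.55) overlapped, then came Klrg1 at 3.24 ± 0.55 and Il10 at 2.14 ± 0.38, with Areg last at 1.20 ± 0.14. In KO eTreg, Il18r1 at 86.8 ± 15.8 was followed by Fgl2 at 27.1 ± 1.19, Klrg1 at 19.4 ± 6.63 and Ebi3 at 17.6 ± 1.5, and the wide spread of Klrg1 overlapped both of its neighbours. Il1rl1 (13.0 ± 3.05) and Il10 (12.2 ± 2.76) were within their spread, and Areg was last at 6.11 ± 0.342.

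**Figure D4:**
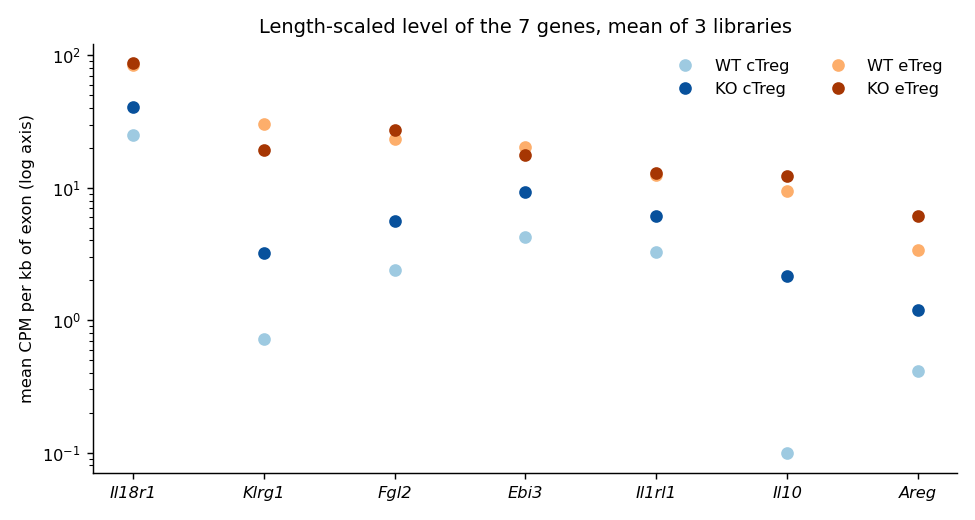
Mean CPM per kilobase of exon of the 7 genes in the 4 groups on a log axis, with 1 point per group and gene. Il18r1 is highest in each group at 25.1 to 86.8, and Klrg1 moves from 0.715 in WT cTreg to 30.1 in WT eTreg.

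The other genes of these pathways were read from lists, and changes are by the same test over all genes, of which 14.8% rose and 12.6% fell in KO cTreg. Of 12 partners, receptors and signalling genes of IL-10 and IL-35, 10 could be tested. In cTreg, 3 rose in KO (Il10ra, Tyk2 and Stat3) and 4 fell (Il10rb, Il6st, Il27ra and Tgfb1), with a list median log2 of -0.11 beside 0.001 for all genes. The calls of Stat3 and Il6st ended in some fits with a library left out. The 2 chains of the IL-10 receptor moved apart: Il10ra rose by log2 0.56 ± 0.13 and Il10rb fell by 0.49 ± 0.05, from 69.1 ± 2.69 to 49.2 ± 1.46 CPM (SD, n = 3). The IL-35 partner Il12a had 2 reads over all 12 libraries, with 0 in both cTreg groups, where 3 reads per group would correspond to 0.0762 CPM (WT) and 0.0666 CPM (KO). Il27, which encodes the other known partner of EBI3, had 0 reads in all libraries. Ebi3 stood at 10.6 CPM or more in KO cTreg and all eTreg libraries, and Il12a at 1 read in WT eTreg and 1 in KO eTreg.

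In the IL-33 and IL-18 receptor list, 14 of 15 genes could be tested, and 5 rose and 3 fell in KO cTreg (list median log2 0.13 beside 0.001), where 14.8% and 12.6% of all genes did. Il18rap, the signalling chain that joins Il18r1, read 8.38 to 12 CPM in WT cTreg and 24.4 to 44.3 in KO cTreg, a rise of log2 1.88 ± 0.32 (adjusted p = 0.00234). In eTreg it read 77.0 to 100 CPM in WT and 70.3 to 116 in KO, which overlapped. The IL-1 receptor genes, neighbours on chromosome 1, also rose, the decoy receptor Il1r2 by log2 3.43 ± 0.26 (adjusted p = 3.13e-06), from 1.63 ± 0.62 to 17.6 ± 4.62 CPM. Il1r1 had 3 reads in WT cTreg and 80 in KO cTreg, a ratio of summed reads of 23.3 with a 95% exact interval of 7.69 to 115. Il1rap, the chain that ST2 and the IL-1 receptor share, was not called (log2 -0.08 ± 0.08). Irak4 and Tab2 also rose, and Traf6, Irak2 and Map3k7 fell. In eTreg, Il1r2 rose again (log2 1.18 ± 0.14), and the fall of Traf6 (adjusted p just under 0.05) ended in most fits with a library left out. IL-33 itself (Il33) had 0 reads in all libraries.

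Of 11 genes for EGF-family ligands, their shedding and their receptors, 6 could be tested. In cTreg the sheddase genes Adam10 and Adam17, whose products release membrane-bound ligands, rose by log2 0.22 ± 0.05 and 0.27 ± 0.06, and Egf, Btc and Hbegf fell. Hbegf, another ligand of the family, moved opposite to Areg, with 52 reads in WT cTreg and 1 in KO cTreg, a ratio of summed reads of 59.5 (95% exact interval 10.2 to 2400.0). In eTreg it was 0.749 ± 0.179 CPM in WT and 0.239 ± 0.065 in KO (SD, n = 3), and that fall (adjusted p = 0.0379) ended with some libraries left out, as did the call of Btc in cTreg. Ereg had 0 reads in all libraries. Of 11 ligands, receptors and relatives of FGL2 and KLRG1, only 3 could be tested, and Cdh1, which encodes the KLRG1 ligand E-cadherin, fell in KO cTreg by log2 1.67 ± 0.52 (adjusted p = 0.0244), a call that ended without WT cTreg library 1 or 2 or without KO cTreg library 2 or 3.

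Transcription factor genes tied to Il10 and tissue Tregs formed the next list. In KO cTreg, 12 of the 13 reported rose, where 14.8% of all genes did, with a median log2 of 1.23 beside 0.001 over all genes, and Crem was not called (log2 0.31 ± 0.14, adjusted p = 0.115). Prdm1, which encodes Blimp-1, rose from 11.4 ± 2.00 to 41.1 ± 3.18 CPM (SD, n = 3), and Maf, which encodes c-Maf, from 44.1 ± 13.4 to 175 ± 5.54. Tbx21, which encodes T-bet, went from 2.81 ± 0.79 CPM in WT cTreg to 19.1 ± 1.55 in KO cTreg, above the 13.8 ± 2.50 of WT eTreg. Gata3, which encodes a factor of type 2 T cells, rose by log2 0.53 ± 0.06. In eTreg, 5 of the 13 rose (Prdm1, Batf, Nfil3, Bhlhe40 and Tbx21), where 3.25% of all genes did. The Tbx21 call there ended without WT eTreg library 1 (adjusted p = 0.0523) or 2 (0.0577). The interaction was lower for 9 of the 13 factors, where 3% of all genes were lower, with a list median of -1.03 beside 0.001. An adjustment for gene length and GC content, chosen after seeing the data, changed 2 signs in KO cTreg against WT eTreg. Batf was then called lower rather than higher (log2 -0.39, adjusted p = 0.000304). Tbx21 turned to log2 -0.20 and was not called (adjusted p = 0.263).

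**Figure D5:**
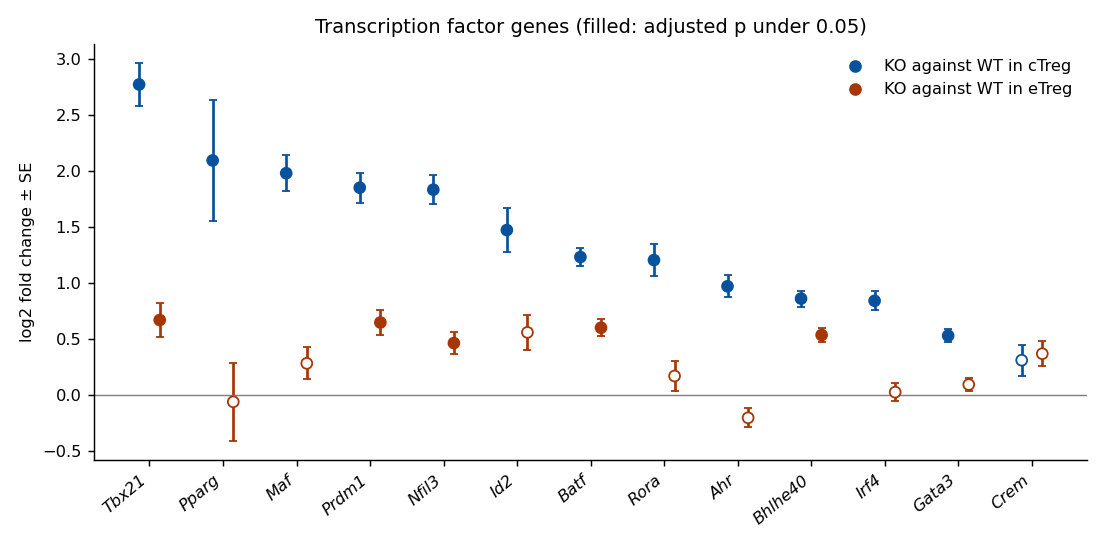
Log2 fold change with SE bars of the 13 transcription factor genes for KO against WT in cTreg and in eTreg. Tbx21 lies at 2.77 in cTreg and 0.67 in eTreg, and filled points have an adjusted p under 0.05.

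Among 12 other suppressive or tissue Treg genes, 9 rose and 1 fell (Entpd1, which encodes CD39) in KO cTreg, with a median log2 of 0.83 beside 0.001. The Entpd1 call ended without WT cTreg library 1 or 2 or KO cTreg library 3. Tigit, an inhibitory receptor, rose from 5.24 ± 0.17 to 62.0 ± 2.69 CPM (log2 3.56 ± 0.07), and Gzmb, which encodes granzyme B, from 0.713 ± 0.094 to 20.0 ± 6.59 CPM. In eTreg, Tigit, Gzmb and Lag3 rose and Penk fell, and the Gzmb call ended without WT eTreg library 1 or 3, without KO eTreg library 3 and in a fit of the 6 eTreg libraries alone (adjusted p = 0.0634, 0.0746, 0.0605 and 0.0844).

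Over the 12 libraries the levels of the 7 genes were close to parallel, with Pearson r of log2 CPM between pairs of 0.87 to 0.975. These values are descriptions and are set mostly by the 4 groups, which all pairs share. After the group means were removed, r ran from -0.853 (Il10 and Ebi3) to 0.91 (Ebi3 and Areg), with a median of 0.199. Both extremes rested mostly on the WT cTreg libraries, where Il10 had 1, 0 and 4 reads and Areg 7, 9 and 4. The genes most like each of the 7 over the 12 libraries, among genes of mean log2 CPM of at least 3, differed from gene to gene. Gata3 was most like Il10 (r = 0.989), Gprin3 most like Ebi3 (0.9935), Fam92a most like Fgl2 (0.9944) and Gpr171 most like Areg (0.9952). Fnbp1 was most like Il1rl1 (0.9721), Cers4 most like Il18r1 (0.9829) and Adam8 most like Klrg1 (0.9783).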

How the data were processed

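The deposited table holds whole-number read counts for each gene symbol in 12 libraries of sorted mouse Tregs, 4 groups of 3. Per the labels' protocols, a Qiagen RNeasy kit gave the RNA, and KAPA RNA HyperPrep with RiboErase the libraries. The submitters' processing notes name HISAT2 2.2.1, Cell Ranger and mm10, with no role. How reads were counted (tool, annotation, strand) is not given in the sources used here, and antisense overlaps are therefore uncertain. Total counts were 14567313 to 19121577 per library.

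Counts were fitted in R 4.3.3 with edgeR 4.0.16 (filterByExpr, TMM, robust quasi-likelihood F-test over 12 libraries, two-sided, Benjamini-Hochberg over 12461 genes, calls at adjusted p under 0.05). Fold changes used edgeR's default prior count, and log2 CPM a prior count of 2. CPM are TMM-normalised, and an SE is the log2 fold change over the square root of F. Only the KO against WT comparisons in cTreg and eTreg were also run on simulated data. The other comparisons and the replicate blocks were not. Alternatives used limma 3.58.1, DESeq2 1.42.0, other filters and scalings, replicate blocks and each library left out, and an offset for gene length and GC content chosen after seeing the data. The labels do not pair libraries. Same-numbered WT and KO eTreg libraries correlated in their deviations (r = 0.257, 0.341 and 0.166), and WT and KO cTreg libraries did not (-0.105, 0.005 and 0.062). WT cTreg library 2 and WT eTreg library 1, of unlike number, gave 0.223. No 2 replicates agreed within sampling noise.

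The members, lists, motifs and tests were chosen with earlier results of these data known. Named are all 7 genes and the gene most alike in level to each. A rule took up to 2 called rises and 2 falls per list and comparison, with genes tied directly to the 7. Only some of the genes it took are described. For example, Pparg in KO cTreg (log2 2.09) and Il12rb2 in KO eTreg (log2 1.35) were not. Other listed genes that are named were added after their values were seen. A marker gene and a listed transcription factor gene are not reported here, and the counts of that list leave it out.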

Additional observations from a re-analysis of the deposited data

Results flagged for a closer look

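The KO effect differed between eTreg and cTreg, by edgeR's interaction test, for 4 of the 7 genes and for some genes of the pathway lists. On the log2 scale (eTreg minus cTreg) the values were -4.02 for Il10, -1.31 for Ebi3, -1.01 for Fgl2 and -2.83 for Klrg1 among the 7 genes. Of the list genes called, those that the naming rule takes are given here, and others such as Nfil3, Penk and Lag3 were called as well. Of the receptors, Il10rb gave 0.40, Il1r1 -3.58 and Il1r2 -2.25, and the ligand Hbegf gave 3.88. Of the transcription factors, Prdm1 gave -1.20, Maf -1.70, Batf -0.63, Gata3 -0.44 and Tbx21 -2.10. Icos gave -1.54 and Tigit -2.73. The values of Il1r1 and Hbegf rest on 3 reads in WT cTreg and 1 read in KO cTreg, and both calls ended with some libraries left out, for example without WT cTreg library 1 (adjusted p = 0.0904 and 0.0588).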

How the results depend on the processing

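For the 7 genes, 860 of 910 comparisons of a result with an alternative kept direction and side of the threshold, 36 lost the call, 8 gained it and 6 changed sign. The sign changes were all in KO against WT eTreg, in values near 0. With 1 library left out, Il1rl1 ran from -0.064 to 0.238 and Il18r1 from -0.116 to 0.138. Il1rl1 read -0.003 and -0.056 without WT eTreg library 1 or 3, and -0.03 and -0.064 without KO eTreg library 2 or 3. Il18r1 read -0.013 without WT eTreg library 2 and -0.116 without KO eTreg library 3. For the other genes that the naming rule took, 2370 of 2478 comparisons held. With the length and GC offset, Il1rap turned to -0.039 (eTreg against cTreg, WT), Sigirr to 0.019 (the same in KO), and Tbx21 to -0.202 and Batf to -0.388 (KO cTreg against WT eTreg). The cause was not tested.

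With the replicate block in the 6 eTreg libraries, 4 of the 7 genes and 1712 genes in all were called, against 1 and 829. With 1 library left out, 455 to 890 genes were called in KO against WT eTreg and 314 to 570 in the interaction, and 2 to 4 of the 7 genes in the interaction. The interaction called 1 of the 7 with limma-voom and 2 with no filter. KO against WT cTreg called 4 to 7 of the 7 with 1 library left out. The block gained Il1rl1 there (adjusted p = 0.0139 over 12 libraries and 0.000119 over 6). Same-numbered WT and KO cTreg libraries did not correlate over all genes, and the labels give no pairs, so a pairing is not established there either. In KO against WT eTreg, the block changed no other call among the 7. Il1rl1 lost its call in eTreg against cTreg of KO with the offset (adjusted p = 0.0889) and in KO cTreg against WT eTreg with the offset (0.103) and the block (0.0651).

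The higher and lower calls were 1847 and 1574 in KO against WT cTreg, and 1560 and 2123 with the offset. In KO against WT eTreg they were 405 and 424, and 301 and 546 with scaling that left out Rn45s. The interaction had 100 higher and 374 lower, and 260 and 350 with the offset. Depth limits Il10, Areg and Klrg1 in WT cTreg, with 5, 20 and 39 reads.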
